A study of Mus musculus with 333 samples.

Results

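The genes described here encode potassium channels. They are the rows of the count table whose symbol starts with KCN, without Kcnj8, Kcnj10 and Kcnj16, and they number 91 of 22074 genes. They fall into 16 families of pore-forming subunits, auxiliary subunits and 1 regulator. Potassium channels let potassium leave the cell, which holds the resting potential and ends action potentials. Voltage-gated channels (Kv) open on depolarisation, inward rectifiers (Kir) and two-pore channels (K2P) set the potential at rest, and the BK, SK and related channels respond to calcium or sodium. Auxiliary subunits such as the KChIP, beta and KCNE proteins do not form a pore and change the trafficking and gating of the channels they bind.

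Polyadenylated RNA was sequenced from single brain cells of wild-type mice of 3 ages, namely E18.5 (embryonic), P12 (postnatal) and adult. The 333 libraries form 6 sets by title: E18.5 visual cortex (71) and E18.5 titled mThal (51), P12 visual cortex (60), P12 hippocampus (68) and P12 thalamus (21), and adult visual cortex (62). Cells titled mThal carry visual cortex as their source, and their title was followed. The submitters' labels put 272 of 332 cells, after 2 libraries were merged, into 7 named types: 70 neurons, 85 astrocytes, 16 oligodendrocyte precursor cells (OPCs), 5 newly formed and 21 myelinating oligodendrocytes, 41 microglia and 34 endothelial cells. A further 53 cells are unannotated and 7 carry the label purple, whose meaning is not given. Neurons came from the E18.5 sets alone, and myelinating oligodendrocytes from P12 hippocampus (15) and adult visual cortex (6).

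Libraries held 374574 to 4849603 reads counted to genes. The 2 merged libraries, adult microglia 1 and 6, had a correlation of 0.994 across genes, against 0.638 for the next closest pair. In 13 of the 272 named cells the summed markers of another class exceeded those of the label. Among these were 5 astrocytes, 3 neurons, 2 OPCs and 2 endothelial cells. For several of the results they touch, values without these cells are also given. Per the design text 5 mice were used at a stage, and the labels do not tell which mouse gave which cell. Each type in each set is therefore 1 sample, and nothing below has a statistical test. Levels are in CPM, the usual scaling of a gene's pooled reads by all reads of the same group of cells. Square brackets after a level hold its exact Poisson interval and after a share its exact Clopper-Pearson interval, both at 95% and for counting error only. Cells were thinned to 350000 reads before cells with a read were counted.

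Of the 91 genes, 84 had a read in some cell and 7 had none. Of all 22074 genes 4864 had none. A read was found in 1 cell alone for 15 genes. At 10 CPM or more in at least 1 named type, the level called measured here, stood 43 of the 91 genes, and 12353 of all 22074 genes. All members of the Kv2 (2), Kv4 (3), KChIP (4) and Kv7 (5) families were measured, as were 4 of 8 Kv1, 3 of 4 Kv3 and 6 of 12 Kir pore genes. None of the 10 silent Kv genes, whose products join Kv2 pores, and none of the 3 Kv1 beta genes reached that level. Of 14 K2P genes 4 did. Reads were concentrated in few cells: in 41 genes, 1 cell held over 50% of all reads, and 33 of the 43 measured genes had a read in under 30% of the cells of their highest type. The same shares over all genes are not given here, so this is not set apart from other genes. With 5 genes a read was found in 50% or more of the cells of a type. Among them were Kcnq3 in neurons, Kcnip3 and Kcnd2 in OPCs and Kcna1 in myelinating oligodendrocytes.

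**Figure D1:**
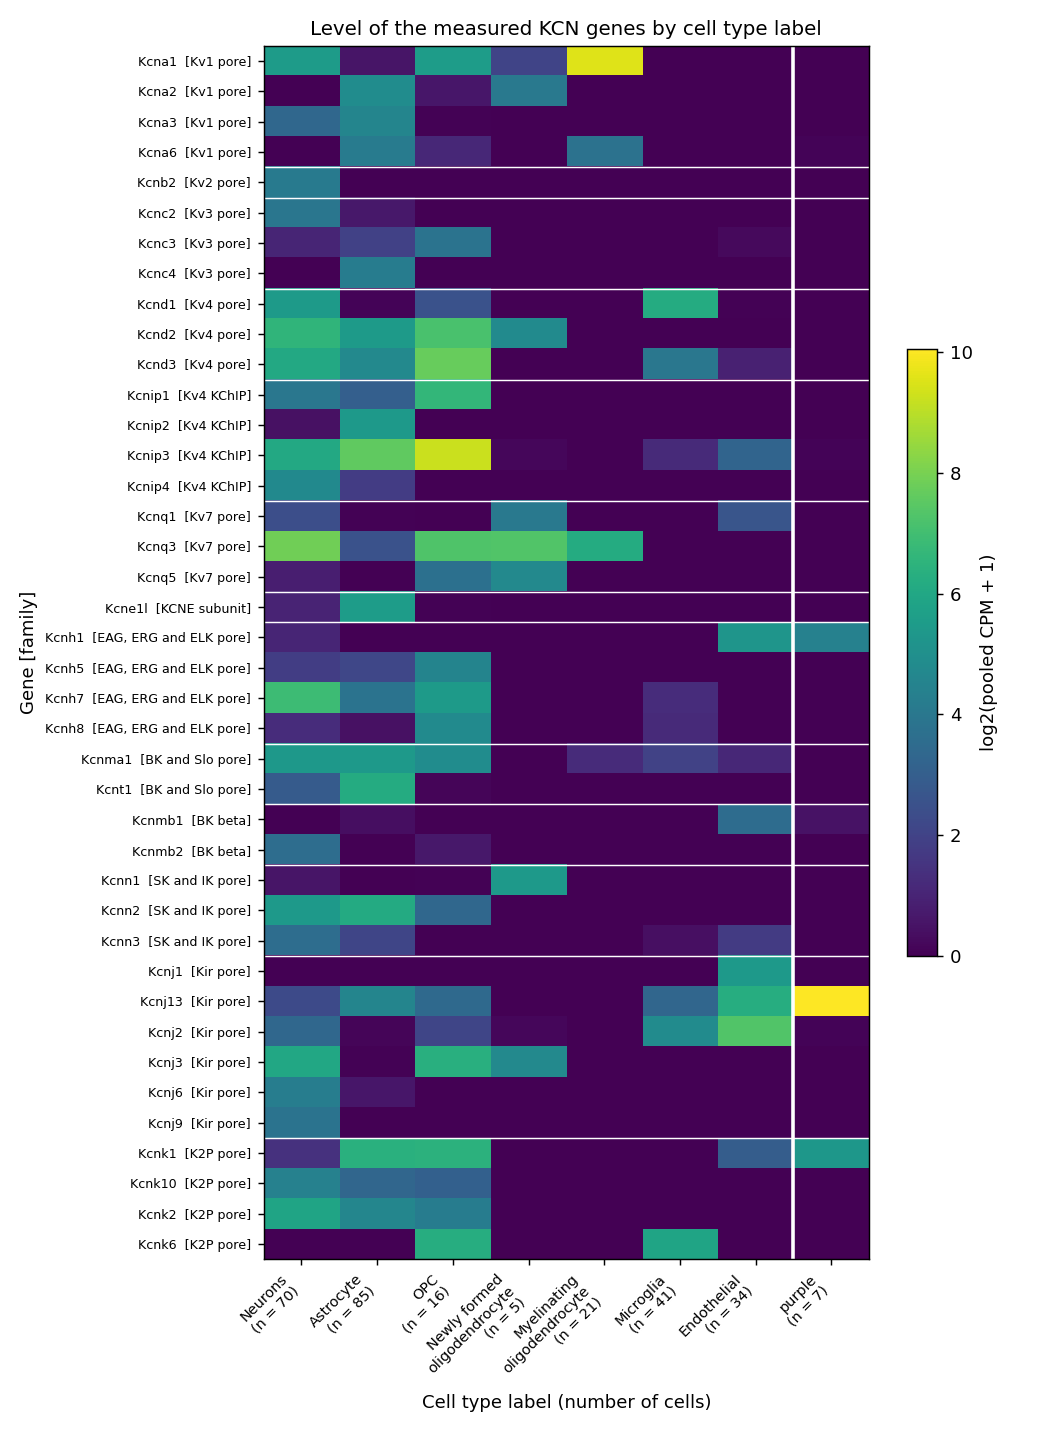
Pooled level, as log2(CPM + 1), of 40 measured KCN genes (rows, by family) in the 7 named cell types and the purple cells (columns, with the number of cells). Kcnip3 is brightest in OPCs (601.5 CPM), Kcna1 in myelinating oligodendrocytes (759 CPM) and Kcnj13 in the purple cells (1058 CPM).

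The number of channel genes read per cell differed by type. After thinning, neurons had a median of 5 KCN genes with a read (range 0 to 19), OPCs 6 (3 to 8) and astrocytes 4 (0 to 9). Newly formed oligodendrocytes had 2 (2 to 4) and myelinating oligodendrocytes 1 (0 to 4). Microglia and endothelial cells each had 1, with none read in 13 of 41 and 12 of 34 cells. The types also differ in all genes read per thinned cell, from a median of 818 in myelinating oligodendrocytes to 4260 in newly formed ones. As a share of those genes, the KCN genes were 0.204% in OPCs, 0.170% in neurons, 0.138% in astrocytes, 0.129% in myelinating and 0.0679% in newly formed oligodendrocytes, 0.0578% in endothelial cells and 0.0492% in microglia. Newly formed oligodendrocytes thus had the most genes in all and a low share of channel genes, while myelinating ones had the fewest genes and a share close to that of astrocytes. Among cells without a named type, the 16 of P12 hippocampus had a median of 6.5 and the 25 titled mThal a median of 3.

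**Figure D2:**
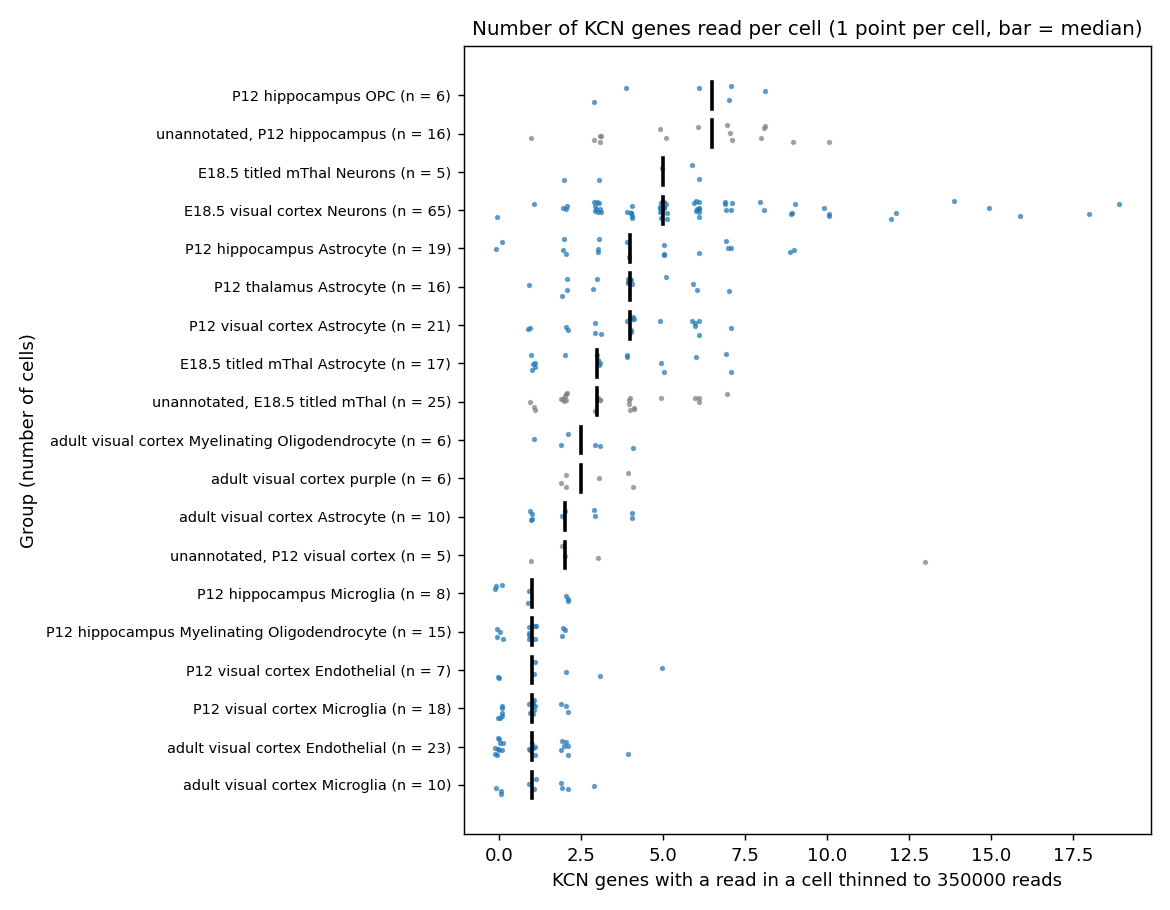
Number of KCN genes with a read in each cell thinned to 350000 reads (horizontal axis), 1 point per cell, in groups of at least 5 cells (vertical axis), with the median as a bar and cells without a named type in grey. OPCs of P12 hippocampus and its unannotated cells both have a median of 6.5, and microglia and endothelial cells have a median of 1 in every group shown.

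A gene is called led by a type where it is measured, its level there is at least 2-fold that of the next type with 1 CPM added to both, and a read was found in at least 30% of that type's thinned cells. This held for 7 of the 43 measured KCN genes (16.3%), and for 18.4% of all 12353 measured genes, so the share is near that background. Neurons led 3 (among them Kcnh7 and Kcnk2, 6.98% of 43 against 3.19% of all genes), and OPCs led 2 (Kcnip3 and Kcnd3, 4.65% against 2.27%). Myelinating oligodendrocytes led Kcna1 (2.33% against 1.47%), and newly formed oligodendrocytes led Kcnq5 (2.33% against 3.71%). Astrocytes, microglia and endothelial cells led none, against 1.71%, 3.46% and 2.54% of all genes. Types were pooled over sets, and all neurons are E18.5 cells while myelinating oligodendrocytes are P12 or adult. A difference between these types therefore cannot be told apart from age. No single cell's removal ended the lead of Kcnip3 or Kcna1, and the removal of 1 cell ended that of Kcnh7, Kcnk2 or Kcnd3. Kcnq5 rests on 2 of 5 newly formed oligodendrocytes and lost its lead on the removal of any of 16 cells. Without the 13 cells whose markers of another class exceeded those of the label, Kcnq5 was not led by a type. A wider marker rule, described below, leaves out 71 of 272 cells, 14 of 16 OPCs among them. Under it Kcna1 and Kcnh7 were not led by a type.

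Kcnq3 encodes a Kv7 subunit of the channel of the M current, a slow potassium current that restrains repeated firing. In neurons it ran from 0 to 1995 CPM with a median of 21.3, pooled 234 CPM [230.5 to 236.7], with a read in 41 of 70 cells (58.6% [46.2 to 70.2]). It was thus found in a majority of neurons, and per kilobase of exon it stood at 15.9 CPM there. Kcnq3 was not led by neurons, because it also stood at 155 CPM in OPCs, 160 CPM in newly formed and 70.7 CPM in myelinating oligodendrocytes. Of the OPC reads, 99.7% came from cell 67 of P12 hippocampus, and the newly formed oligodendrocyte reads all came from 1 cell. The OPC level without that cell was 0.407 CPM. In neurons the Kv7 genes Kcnq1 and Kcnq5 were lower, at 4.38 and 0.817 CPM.

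Kcnh7 encodes an ERG channel, a voltage-gated channel that closes slowly after depolarisation. It had a read in 23 of 70 neurons (32.9% [22.1 to 45.1]), with 0 to 1759 CPM per cell, a median of 0 and 119 CPM pooled. The next type was OPCs at 43.5 CPM, from 2 cells. Its annotation shares 696 exon bases on the opposite strand with Gca, which stood at 0.467 CPM in neurons. Of the other genes described, Kcnk2, Kcnd3, Kcnj3, Kcnj6, Kcnj9, Kcnn2, Kcnk1, Kcna6, Kcnma1, Kcnq1, Kcnq5 and Kcnip4 overlap an annotated noncoding gene on the opposite strand. Kcnip4 also shares 168 exon bases on that strand with the protein-coding gene 5730480H06Rik. The library kit does not mark strand, so reads of such partners cannot be told apart. Kcnk2 encodes TREK-1, a two-pore leak channel that responds to stretch and lipids. It too was read in 23 of 70 neurons, at 0 to 5914 CPM and 57.03 CPM pooled, and in 20 of 85 astrocytes at 23.7 CPM. A share of 53.3% of its neuronal reads came from cell 60 of E18.5 visual cortex, and without the cell that lowers it most the neuronal level was 26.8 CPM.

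Several other pore genes were read in few neurons. Kcnj3, a subunit of the G-protein-gated inward rectifiers, was at 64.96 CPM with a read in 15 of 70 neurons and at 80.4 CPM in OPCs from 3 of 16 cells. In neurons its partners Kcnj6 and Kcnj9 were at 18.02 and 13.1 CPM with 2 cells each. No thinned neuron had a read of both Kcnj3 and either partner. The Kv2 gene Kcnb2 was at 16.2 CPM, in 9 neurons. Kcnma1, the pore of the BK channel that opens on calcium and depolarisation, was about equal in neurons (39.6 CPM, 20 of 70 cells) and astrocytes (40.9 CPM, 14 of 85 cells).

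Kv4 channels carry the fast A-type current, and KChIP proteins and Dpp6 are their auxiliary subunits. Kcnip3 encodes KChIP3, which is also known as a calcium-binding transcriptional repressor, DREAM. In OPCs it had a read in 14 of 16 cells (87.5% [61.7 to 98.4]), ran from 0 to 2122 CPM with a median of 106, and was at 601.5 CPM pooled [591 to 612]. Astrocytes followed at 191 CPM with a read in 34 of 85 cells (40% [29.5 to 51.2]), then neurons at 65.5 CPM with 20 of 70. Myelinating oligodendrocytes had no read of it. Kcnip3 was the KCN gene found in the largest share of the cells of any 1 named type among those measured.

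The OPC level of Kcnip3 was found in each set that held these cells. Both OPCs titled mThal had it, at 72.2 and 2122 CPM. The 4 of P12 visual cortex were at 1.75, 55.7, 160 and 1357 CPM, and the 6 of P12 hippocampus at 0 to 1930 CPM with a median of 623. In adult visual cortex 3 of the 4 OPCs had 55.6, 140 and 149 CPM and the fourth 0. The 6 highest values were all from E18.5 or P12 cells, and the lowest cell of each set was at 72.2 CPM or less.

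Kcnd2 and Kcnd3 encode Kv4.2 and Kv4.3. In OPCs Kcnd2 had a read in 9 of 16 cells (56.2% [29.9 to 80.2]) at 0 to 1201 CPM, median 4.25, pooled 143 CPM, with 51.3% of the reads from cell 22 of P12 hippocampus. Neurons were at 94.8 CPM (22 of 70) and astrocytes at 43.6 CPM (15 of 85), so no type led it. Kcnd3 had a read in 6 of 16 OPCs (37.5% [15.2 to 64.6]) at 0 to 1498 CPM and 207 CPM pooled, against 66 CPM in neurons. Per kilobase of exon, OPCs had 27.8 CPM of Kcnd2, 21.6 of Kcnd3 and 170 of Kcnip3, so the auxiliary subunit was well above both pores. Of 16 OPCs, 8 had a read of Kcnd2 together with a KChIP gene, 1 of Kcnd2 alone and 6 of a KChIP gene alone. In neurons the same counts were 9, 13 and 22 of 70. Dpp6 was also led by OPCs, at 317 CPM and in 75% of the cells, against 70 CPM in neurons. Kcnip1 was highest in OPCs (99.2 CPM) from 4 cells, and Kcnip4 was highest in neurons (26.04 CPM, 11 of 70 cells).

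**Figure D3:**
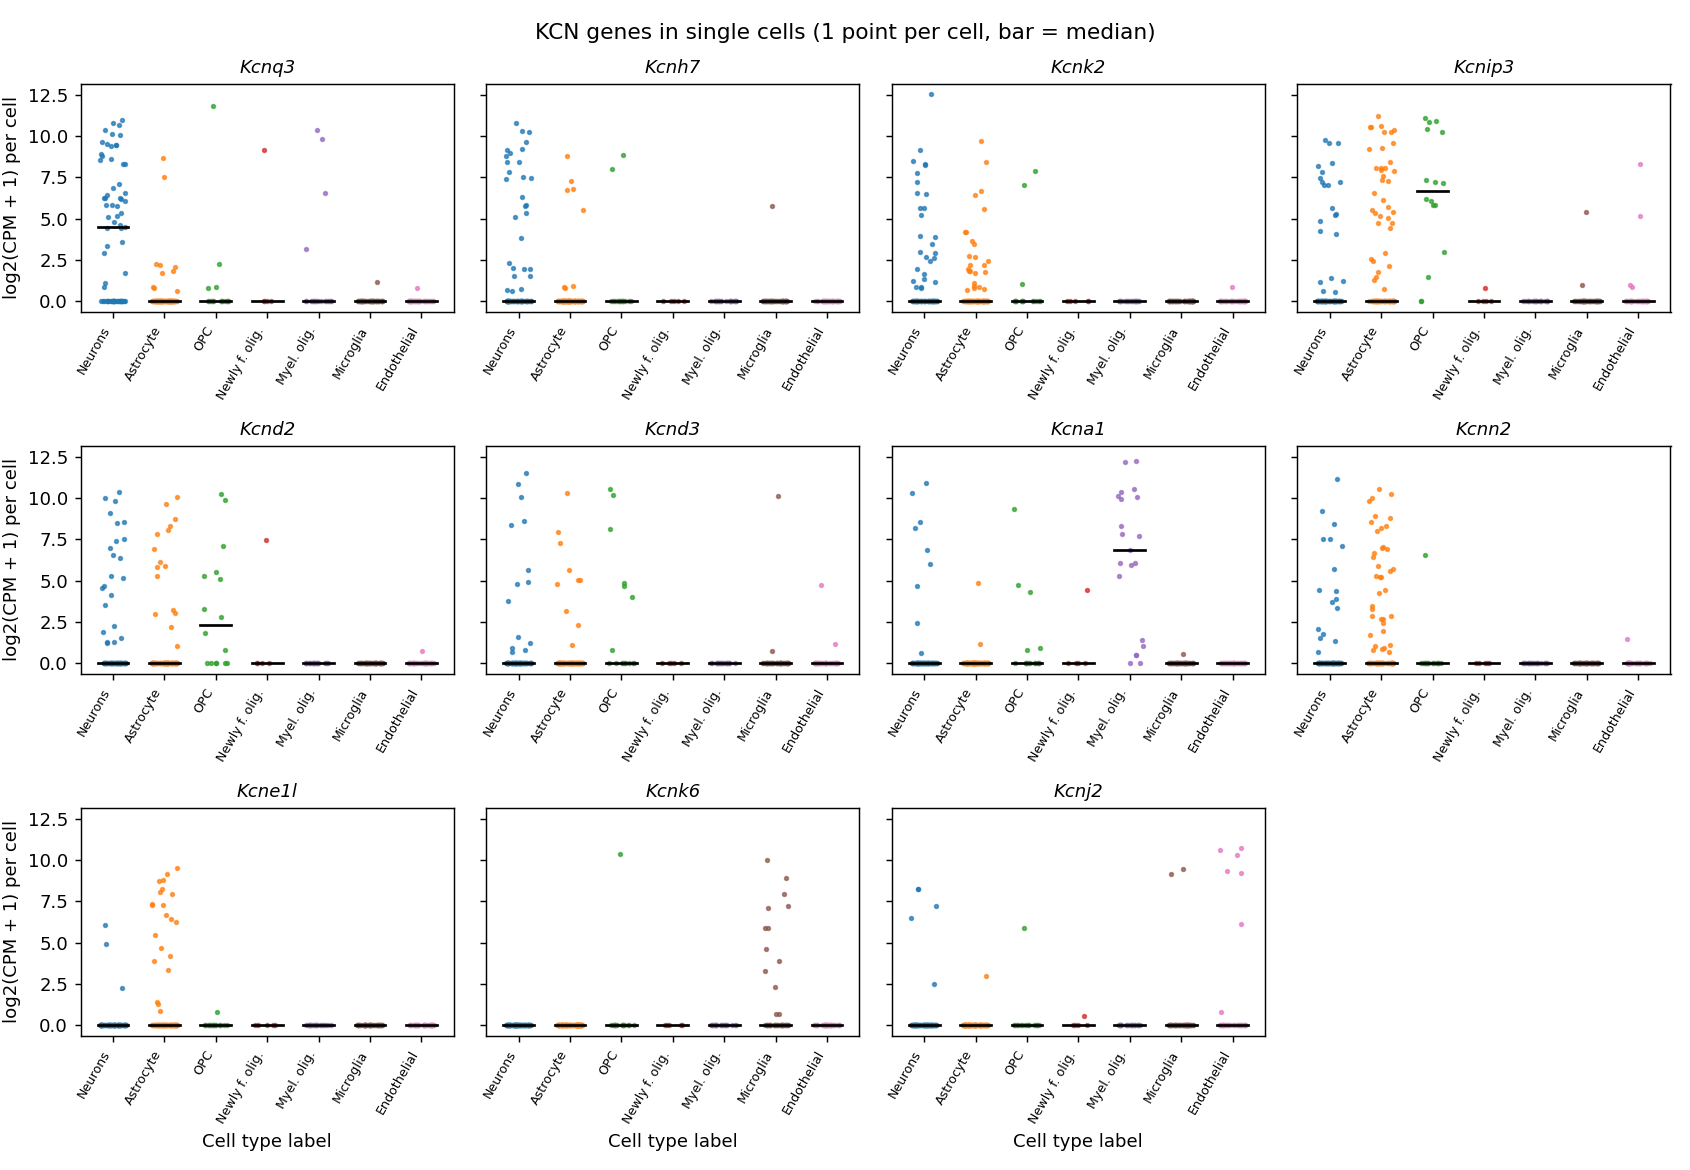
Level of 11 KCN genes in each cell of the 7 named types, as log2(CPM + 1) on the vertical axis, 1 point per cell, with the median as a bar. The median is above 0 for Kcnq3 in neurons, Kcnip3 and Kcnd2 in OPCs and Kcna1 in myelinating oligodendrocytes, and it is 0 in each other panel and type.

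Kcna1 encodes Kv1.1, a low-threshold voltage-gated channel known from the juxtaparanodes of myelinated axons. In myelinating oligodendrocytes it had a read in 16 of 21 cells (76.2% [52.8 to 91.8]), ran from 0 to 4798 CPM with a median of 115, and was at 759 CPM pooled [752 to 766]. Leaving out 1 cell moved this between 451 and 821 CPM. OPCs were next at 46.3 CPM, of which 91.8% came from 1 cell, a 16.1-fold gap. Neurons, all of E18.5, stood at 44.8 CPM in 8 of 70 cells. Of the 16 unannotated cells of P12 hippocampus, 4 had a read of Kcna1, at up to 2080 CPM. Of the other measured Kv1 genes, Kcna6 was at 12.7 CPM in 6 of 21 myelinating oligodendrocytes, and Kcna2 and Kcna3 had no read there. Of the proteins that cluster Kv1 channels, Adam22 was led by myelinating oligodendrocytes, at 1138 CPM in 61.9% of the cells, and Cntn2 stood at 278 CPM in 33.3% of them against 414 CPM in 78.6% of neurons. Microglial markers exceeded the label's own in 1 of the 21 cells, and without the 13 cells of that kind Kcna1 kept its lead. Without the 71 cells of the wider marker rule it was not led by a type.

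Astrocytes led no KCN gene, although 10 of the 43 were highest there. Kcnn2, the SK2 channel opened by calcium alone, was read in 33 of 85 astrocytes (38.8% [28.4 to 50.01]) at 0 to 1469 CPM and 70.2 CPM pooled. Neurons had 40.6 CPM of it, a 1.71-fold gap. Kcne1l, a KCNE auxiliary subunit also named Kcne5, was 23.5-fold above the next type at 46.2 CPM, but in 19 of 85 astrocytes (22.4% [14.03 to 32.7]). No astrocyte held more than 15.02% of its reads there, so the level did not rest on 1 cell. Kcnk1, the two-pore channel TWIK-1, was at 82.9 CPM in astrocytes (21 of 85) and 86.1 CPM in OPCs (3 of 16). Kcnt1, a sodium-activated channel, was at 70.7 CPM in 14 astrocytes, with 47.4% of the reads from cell 3 of P12 thalamus. For comparison, the sodium pump gene Atp1b2 was led by astrocytes, at 2100 CPM and with a read in 87.1% of the cells.

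In microglia, Kcnk6, the two-pore channel TWIK-2, was read in 13 of 41 cells (31.7% [18.1 to 48.1]) at 0 to 1027 CPM and 58.1 CPM pooled. Reads in other types came from 1 OPC, cell 48 of P12 visual cortex at 1330 CPM, which put OPCs at 76.7 CPM. That cell carries 18979 CPM of microglial markers against 1210 CPM of those of its label. Without the 13 cells of such mixed markers, no named cell outside microglia had a read of Kcnk6 and microglia led it. Kcnd1, which encodes Kv4.1, was at 71.9 CPM in 9 of 41 microglia and at 43.4 CPM in neurons, 99.5% of the latter from 1 cell. Kcnj2, the strong inward rectifier Kir2.1 known from capillary endothelium, was at 159.5 CPM in 6 of 34 endothelial cells (17.6% [6.76 to 34.5]), 5.64-fold above microglia. Its cells were spread over 3 sets, with 3 of 4 cells of P12 hippocampus, 2 of 23 of adult and 1 of 7 of P12 visual cortex. Kcnj1 (42.04 CPM) came from 1 endothelial cell, adult 24, and all or 99.9% of the endothelial reads of Kcnj13 (74.9 CPM) and Kcnh1 (36.8 CPM) from another, adult 38, described next.

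Kcnj13 encodes Kir7.1 and Kcne2 a KCNE subunit, and both are known from the membrane of choroid plexus epithelium that faces the cerebrospinal fluid. In the 7 purple cells Kcnj13 was at 1058 CPM [1042 to 1075] and Kcne2 at 694 CPM, the highest level of either in any label. For Kcnj13 the adult cells 9, 10, 17, 23 and 45 had 2075, 672, 275, 1479 and 2604 CPM. Kcne2 stood at 418, 1960, 325, 1503 and 0 CPM in the same 5 cells. The other 2 purple cells, adult 7 and P12 visual cortex 13, had neither gene.

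These 5 cells had 120141 to 427446 CPM of Ttr, the thyroid hormone carrier that choroid plexus epithelium secretes, and the other 2 had 51.8 and 0 CPM. Those 2 had 75241 and 93662 CPM summed over pericyte and smooth muscle markers, which were at 0 to 15.01 CPM in the 5. Across all 332 cells, 7 had 10000 CPM or more of Ttr: the 5 purple cells, adult cell 38 labelled Endothelial (191578 CPM) and cell 8 titled mThal labelled Astrocyte (82779 CPM). Kcne2 reached 10 CPM in 5 of these 7 and in 0 of the other 325, where its highest value was 8.31 CPM. Kcnj13 reached 10 CPM in 6 of the 7 and in 11 of the 325, at up to 936 CPM. Kcne2 was therefore found at that level in cells of high Ttr alone, and Kcnj13 was not. The endothelial cell 38 had 1102 CPM of Kcnj13 and 7.14 CPM of Kcne2 but 27.8 CPM of endothelial markers, and the astrocyte had 28.2 CPM of Kcne2, no Kcnj13 and 315 CPM of astrocyte markers. Kcnj13 shares 623 exon bases on the opposite strand with Gigyf2, whose level in the 5 purple cells was 1.47 to 234 CPM.

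**Figure D4:**
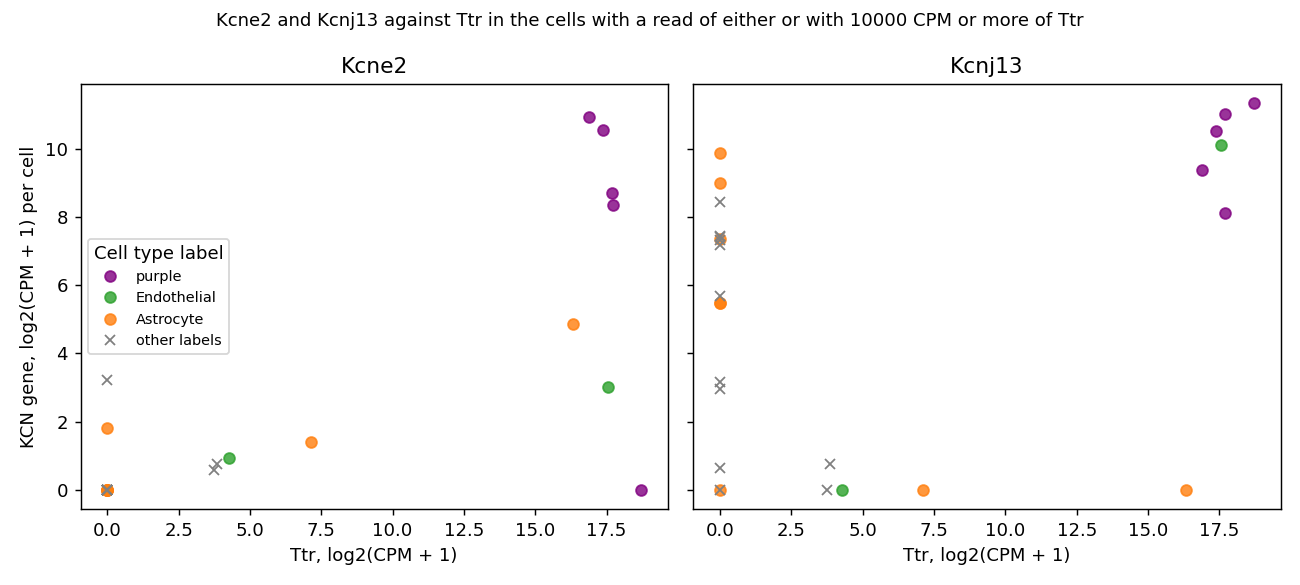
Level of Kcne2 (left) and Kcnj13 (right), as log2(CPM + 1), against that of Ttr in the same cell, for the cells with a read of either gene or at least 10000 CPM of Ttr, coloured by label. All cells with 10 CPM or more of Kcne2 lie among the 7 at high Ttr, and Kcnj13 is also found in 11 cells outside them.

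Because Kcne2 and Kcnj13 were read together in 4 purple cells and in endothelial cell 38, the 100 bases before their RefSeq start sites are shown (assembly GRCm38.p6, written in the direction of transcription). RefSeq gives Kcne2 a pair of starts on the plus strand, with windows at chr16:92292289-92292388 and chr16:92295516-92295615. Kcnj13 has 1 start on the minus strand, with its window at chr1:87394730-87394829. Capitals mark matches on either strand to the letters of 3 common promoter motifs. The TATA box was searched as TATAAA. The letters used for the GC box were GGGCGG. For the CCAAT box they were those of its name.
Kcne2 start 1: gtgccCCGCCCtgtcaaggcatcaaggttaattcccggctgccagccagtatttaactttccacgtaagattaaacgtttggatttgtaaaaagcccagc
Kcne2 start 2: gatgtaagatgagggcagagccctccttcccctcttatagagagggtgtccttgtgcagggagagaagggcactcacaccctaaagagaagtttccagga
Kcnj13: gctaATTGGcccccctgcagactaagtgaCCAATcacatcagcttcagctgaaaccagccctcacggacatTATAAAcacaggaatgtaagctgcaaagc
The Kcnj13 window holds 1 TATA box and 2 CCAAT boxes, the first Kcne2 window 1 GC box, and the second Kcne2 window none of them. Of 32851 windows of this length before RefSeq starts, 5.56% hold a TATA box, 24.7% a GC box and 18.9% a CCAAT box. Of the 88 windows of the 66 KCN genes in the table, these numbers were 1, 30 and 9. A match describes the letters only.

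In 10 pairs of groups with at least 5 cells each, ages or regions were compared within a cell type, except in 1 pair. That pair sets myelinating oligodendrocytes against OPCs within P12 hippocampus. The log2 ratio is of pooled CPM with 1 CPM added, a gene counts where it reached 10 CPM in either group, and 2-fold is the call. Between 3 and 29 KCN genes counted in a comparison, and 77.8% or more of them were past 2-fold, as were 59.4% to 88.7% of all genes, so a 2-fold call says little about a gene here. A stricter rule asks for 2-fold whichever single cell is left out and for a share of thinned cells with a read at least 30 points apart. It called 14 gene and comparison pairs, of 9 genes, in 6 of the 10 comparisons. The comparison of the 2 cell types gave 1 higher and 5 lower of these calls. Kcnip3 was called in 4 comparisons and Kcnq3 in 3. Several comparisons share a group, such as the P12 visual cortex astrocytes in 3 of them, and ages and regions, each tied to a set, cannot be told apart from other differences between sets.

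**Figure D5:**
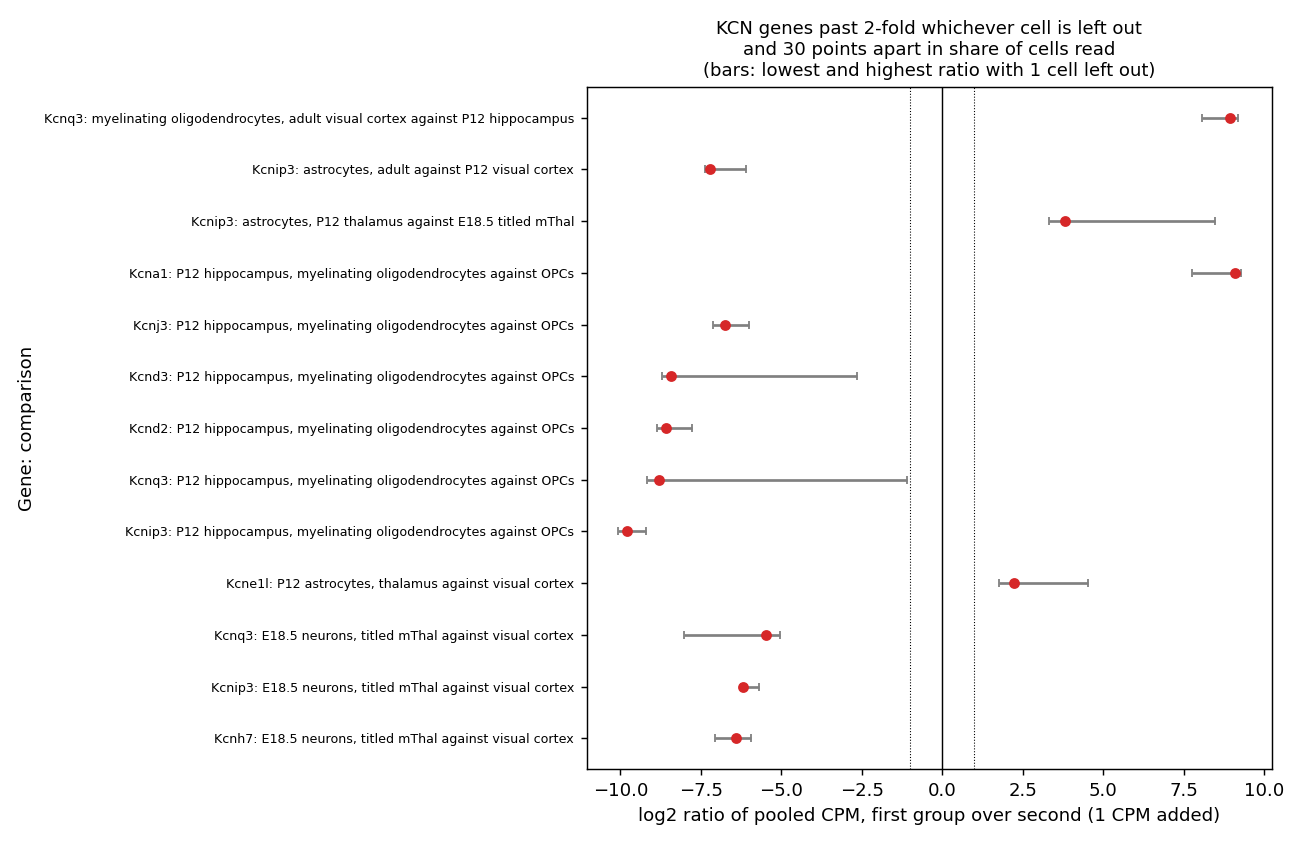
Log2 ratio of pooled CPM (1 CPM added), first group over second, for 13 of the 14 pairs of gene and comparison past the stricter rule, with bars from the lowest to the highest ratio on leaving out 1 cell and dotted lines at 2-fold. The Kcnip3 ratio is -7.22 for adult against P12 visual cortex astrocytes and 3.83 for P12 thalamus against E18.5 titled mThal.

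In astrocytes of visual cortex, the adult cells had no read of Kcnip3. It was at 0 CPM in all 10 adult cells and at 0 to 1552 CPM in the 21 P12 cells, with a median of 31.5 and a pooled level of 148 CPM. A read was found in 15 of the 21. Against a floor of 3 reads over the adult cells, the pooled level was at least 292-fold higher at P12. That bound covers counting error only and not the spread between cells. The cells of the groups overlap at 0. Adult astrocytes had fewer genes in all per thinned cell (median 1500.5 against 3015). Of the 13 KCN genes counted, 9 were lower and 2 higher in the adult (84.6%). Of all 8379 genes 58.7% were lower and 24% higher (82.7%), and the median log2 ratio was -4.18 for the KCN genes and -2.36 for all genes. With median-of-ratios scaling, 7 were lower and 4 higher. The stricter rule called Kcnip3 alone, and called 13.6% of all genes lower and 0.501% higher. A wider rule than that of the 13 cells takes each cell in which the summed markers of another class reach 25% of that class's own median, 71 of 272. Without those cells 7 are left in each group, and the log2 ratio of Kcnip3 went from -7.22 to -3.76. The 2 higher genes were Kcna2 (336 against 10.9 CPM), which rests on adult cell 42, with a log2 ratio of 0.48 without it, and Kcnq3 (21.5 against 0.0427 CPM).

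Between P12 regions, astrocytes of thalamus had 117 CPM of Kcne1l, at 0 to 741 CPM with a median of 0.43, and those of visual cortex 24.1 CPM, at 0 to 568.1 CPM with a median of 0. A read was found in 7 of 16 and 2 of 21 cells, and the log2 ratio was 2.24 (1.78 to 4.52 on leaving out 1 cell). By the wider rule on markers of another class it was 7.77, over 8 thalamic and 7 cortical cells. Of 18 KCN genes counted, 9 were higher and 5 lower in thalamus (77.8%), and of all genes 28.1% were higher and 35.1% lower (63.2%). The stricter rule called Kcne1l alone, and called 1.1% of all genes higher and 1.92% lower. Kcnip3 was also higher, at 599.5 against 148 CPM (log2 ratio 2.01, 1.502 to 3.12), though in 9 of 16 against 15 of 21 cells. Against visual cortex, hippocampal astrocytes had 12 of 21 KCN genes higher and 5 lower (81.0%), where of all genes 26.7% were higher and 32.6% lower (59.4%). None was called by the stricter rule, which called 0.507% of all genes higher and 0.717% lower. There Kcnip3 was at 154 against 148 CPM, with a log2 ratio of 0.055 that was 2.57 by the wider marker rule, and Kcnn2 stood at 142 and 70.6 CPM, found in 11 of 19 hippocampal and 10 of 21 cortical cells.

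Against the astrocytes titled mThal at E18.5, those of P12 thalamus had more Kcnip3. The 17 E18.5 cells ran from 0 to 589 CPM with a median of 0 and 41.3 CPM pooled, and 2 had a read. The 16 P12 cells ran from 0 to 2337 CPM with a median of 155 and 599.5 CPM pooled, and 9 had a read. The log2 ratio was 3.83 and lay between 3.32 and 8.49 on leaving out 1 cell. By the wider marker rule, which leaves 8 cells in each group, it was 7.27. Without the 13 cells of mixed markers it was 3.39. Of 19 KCN genes counted, 10 were higher and 6 lower at P12 (84.2%), and of all genes 31% were higher and 36.9% lower (67.9%). The stricter rule called Kcnip3 alone, and called 2.8% of all genes higher and 1.53% lower. Kcnk1 was at 184.5 CPM in P12 thalamus from 3 cells and at 0.0369 CPM at E18.5, a log2 ratio of 7.48 that was -0.099 by the wider marker rule. Kcnip2 was at 0 and 141 CPM, the latter in 2 of 17 cells.

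Within P12 hippocampus, Kcna1 was higher in myelinating oligodendrocytes, and Kcnip3 and Kcnd2 were higher in OPCs. All these myelinating oligodendrocytes lie among cells 1 to 16 of the set and all the OPCs among cells 18 to 67. The cell identifiers of these blocks form separate number runs, so cell type cannot be told apart from block here. The astrocyte of the first block, cell 9, had 612 genes per thinned cell, against a median of 2797 in the set's astrocytes. Kcna1 was at 621 CPM in the 15 myelinating oligodendrocytes (0 to 4620, median 65.2, a read in 10) and at 0.139 CPM in the 6 OPCs, a log2 ratio of 9.09. Kcnip3 was at 889 CPM in the OPCs (5 of 6 cells) and Kcnd2 at 381 CPM (4 of 6). Neither had a read in a myelinating oligodendrocyte, and the log2 ratios with 1 CPM added were -9.80 and -8.58. Kcnd3 (339.5 CPM), Kcnq3 (443 CPM) and Kcnj3 (106 CPM) had reads in 2 of 6 OPCs each and none in the other group. Without OPC 67 the log2 ratio of Kcnq3 went from -8.79 to -1.08, and without OPC 22 that of Kcnd3 went from -8.41 to -2.63.

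Of the 14 KCN genes counted in that comparison, 2 were higher (Kcna1 and Kcna6) and 12 lower in myelinating oligodendrocytes (100%), and of all genes 22.2% were higher and 66.5% lower (88.7%). The median log2 ratio was -5.79 for these and -3.93 for all genes. By the stricter rule 1 was higher and 5 lower, and over all genes 1.76% were higher and 34.1% lower. Myelinating oligodendrocytes had a median of 771 genes per thinned cell and OPCs 2868.5. The log2 ratio of Kcna1 was 10.05 with TMM scaling and 10.22 with median-of-ratios scaling, and that of Kcnip3 went from -9.80 to -8.93 and -8.76. With either scaling 12 of the 14 genes reached 10 CPM, 2 of them higher and 10 lower, and no direction of a stricter call changed.

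Kcnq3 was read in some adult myelinating oligodendrocytes of visual cortex and in none of P12 hippocampus. The 6 adult cells were at 908, 0, 91.7, 8.05, 1325 and 0 CPM, pooled 494 CPM, and all 15 P12 cells were at 0 CPM. Of 3 KCN genes counted, all were higher in the adult cells (100%), and of all genes 56.9% were higher and 29.2% lower (86.1%). The median log2 ratio was 1.35 for the KCN genes and 2.07 for all genes. Adult cells had a median of 2001.5 genes per thinned cell and P12 cells 771. Age, region and the block of the P12 cells cannot be told apart here. The stricter rule called Kcnq3 alone, and called 21.7% of all genes higher and 0.982% lower. Kcna1 was at 1582 CPM in the adult cells, with 61.5 to 4798 CPM and a read in all 6, against 621 CPM. Its log2 ratio of 1.35 was 0.16 without adult cell 2. Kcna6 was at 26.9 and 10.4 CPM, from 3 cells each, a log2 ratio of 1.29. With TMM scaling the log2 ratios of Kcna1 and Kcna6 were 0.041 and 0.061, and with median-of-ratios scaling both turned, to -0.13 and -0.10. By the wider marker rule they were -0.015 and -0.14, over 5 and 13 cells. That of Kcnq3 went from 8.95 to 8.30 and 8.21 with the respective scalings.

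Among E18.5 neurons, the 5 cells titled mThal had less Kcnq3, Kcnh7 and Kcnip3 than the 65 of visual cortex. Kcnq3 was at 0 CPM in 4 of the 5 and 21.5 CPM in cell 45, against 0 to 1995 CPM in visual cortex with a median of 27.2 and a read in 40 of 65. Kcnh7 was at 0.568 against 131 CPM and Kcnip3 at 0 against 72.2 CPM (20 of 65 cells). No read of Kcnip3 in 5 cells does not set how much lower its level is. The log2 ratios of these 3 genes were -5.48, -6.40 and -6.19, and the cells of both groups overlap at 0 for each gene.

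Of 29 KCN genes counted in these neurons, 20 were lower and 7 higher in the cells titled mThal (93.1%), with a median log2 ratio of -3.72. Of all genes 54.7% were lower and 20.8% higher (75.5%), with a median of -1.49. The stricter rule called 4 genes lower, these 3 among them, and none higher, and called 8.25% of all genes lower and 1.63% higher. In 2 of the 5 cells, 45 and 46, the summed markers of newly formed oligodendrocytes exceeded those of neurons. The sums were 8942 against 8166 CPM and 7820 against 6408 CPM, and whether these cells are mixed was not tested. Without cells whose own markers were exceeded, 23 genes were lower and 4 higher. By the wider marker rule the log2 ratio of Kcnq3 was -8.03, over 3 and 62 cells. Without the 13 cells of mixed markers the log2 ratios of Kcnq3, Kcnh7 and Kcnip3 were -8.02, -6.09 and -6.18. Kcnd2 was higher (392 against 64.2 CPM) from cell 3, and its log2 ratio was -5.17 without that cell.

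Microglia and endothelial cells had few KCN genes to compare, and none was called by the stricter rule. Between adult and P12 visual cortex microglia, 4 of 6 genes were higher and 2 lower (100%), and of all genes 29.3% were higher and 46.9% lower (76.2%). The stricter rule called 1.52% of all genes higher and 4.69% lower. Kcnk6 was at 8.21 against 35.97 CPM in 2 of 10 and 5 of 18 cells. Kcnd3 and Kcnj2 were higher in the adult from 1 cell, 35. Between P12 hippocampus and visual cortex microglia, 2 genes were higher and 2 lower of 4 (100%). Of all genes 29.3% were higher and 41.7% lower (71%), and by the stricter rule 2.41% and 2.13%. Kcnk6 was at 167 CPM in 3 of 8 hippocampal cells, with a log2 ratio of 2.18 that was -0.51 without cell 20. Between adult and P12 endothelial cells, 7 of 10 were higher and 2 lower (90%), and without the cells of mixed markers, adult 38 and 52, 3 were higher and 2 lower. Of all genes 43.4% were higher and 32.5% lower (75.9%), and by the stricter rule 1.2% and 6.56%. The level of Kcnj2 was 116 CPM in the adult and 78.6 CPM at P12, from 2 of 23 and 1 of 7 cells.

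The genes that work with these channels were described from 9 lists of 45 genes. Of these, 29 were measured and 7 were led by a type: 2 each by neurons, astrocytes and OPCs and 1 by myelinating oligodendrocytes. Of all 22074 genes 12353 were measured, and 18.4% of those were led. Of 9 sodium channel genes 6 were measured, with Scn3b led by neurons (146 CPM, 45.7% of cells) and Scn2b by OPCs (533 CPM, 31.2%). Scn3a, a pore gene of developing neurons, was at 455 CPM in neurons (81.4% of cells) and 313 CPM in OPCs (56.2%), so these types shared it as they shared Kcnd2. Of 8 calcium channel pores 6 were measured, and Cacna1b, the N-type pore, was led by neurons (114 CPM, 50%). None of the 4 HCN genes and none of the 4 BK gamma subunits was measured. All 5 chloride cotransporter genes were measured and none was led.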

How the data were processed

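Single cells were sorted, captured on a Fluidigm C1 device and amplified with the SMARTer kit, per the labels' protocols. The authors deposited raw counts, whole reads per gene and cell, made with STAR and HTSeq 0.6.0 on mm10, per the submitters' processing notes. There are no molecular identifiers. From these counts, sums over cells, CPM, shares after thinning to 350000 reads, and log2 ratios with 1 CPM added were computed (Python 3.11.15, numpy 2.4.6, pandas 2.3.3, scipy 1.17.1; TMM factors with edgeR 4.0.16 in R 4.3.3). The steps were tested on simulated data. All 91 symbols matched RefSeq. The members, families, partner lists and rules were chosen with earlier results of these data known. Any member could be named, but some genes are not reported here by name. Full values were given for those led by a type, read in 50% of its cells, or past the stricter rule. The rule on mixed markers was added after seeing the data. Alternatives were other scalings, minima, pseudocounts, thinning depths and cell filters, and each cell left out.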

Additional observations from a re-analysis of the deposited data

Results flagged for a closer look

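In 1 of 24 combinations of group and measure tested, a cell stood apart from the rest of its group. P12 visual cortex endothelial cell 39 had 825 CPM summed over the KCN genes, the next of the 7 cells had 115 CPM, and the median of the others was 27.4 CPM. Chance sets about 1 in 20 groups apart in this way. The cell holds all but 1 read of the P12 visual cortex level of Kcnj2.

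The purple cells, which enter no comparison because the labels do not say what they are, had 694 CPM of Kcne2 and 1058 CPM of Kcnj13, above the floor of 3 reads over the 7 cells (0.200 CPM).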

How the results depend on the processing

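Of 107 recomputed counts, 88 stayed within 1.5 times the count reported. None of the 133 recomputed log2 ratios of the genes past the stricter rule changed sign or fell below 2-fold. Part of these ratios could not do so. The stricter rule already asks for 2-fold whichever cell is left out, and a minimum CPM does not enter a ratio. In place of 7 of the 43 measured KCN genes led by a type, 33 were led with no condition on the share of cells. Of all 12353 measured genes 5504 were led under that setting. Where a cell counted from 5 reads, 4 KCN genes were led, and 1904 of the 12353. With cells carrying markers of another class left out (71 of 272, by a rule that takes 14 of 16 OPCs), 9 KCN genes were led. Of them 5 were led by the same type as before, and Kcna1 and Kcnh7 were not led. Of all genes 3076 of 12169 were led in that setting. With a minimum of 50 CPM, the genes past 2-fold were 5 in adult against P12 visual cortex astrocytes, 2 in the microglia and 3 in the endothelial cells of that pair, 10 in P12 thalamus against E18.5 astrocytes, 4 and 6 in P12 hippocampus and thalamus against visual cortex astrocytes, 8 in myelinating oligodendrocytes against OPCs and 10 in E18.5 neurons. With no minimum they were 20 in adult against P12 astrocytes, 18 in the endothelial cells, 6 in adult against P12 myelinating oligodendrocytes and 42 in E18.5 neurons. The 3 genes of that oligodendrocyte comparison became 1 with TMM scaling, 1 with median-of-ratios scaling, 1 without cells carrying markers of another class and 1 to 3 on leaving out 1 cell. The endothelial count became 5 without cells whose markers of another class exceed their own. The cause was not tested. The comparison of myelinating oligodendrocytes with OPCs could not be computed without cells of other markers. A gene with few reads per group has a level set by single cells, and no read in n cells does not show that a gene is absent. Without molecular identifiers, intervals count reads and not molecules.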
